A study of Rattus norvegicus with 6 samples.

Results

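Cytokine, chemokine and innate immune genes were examined in the open chromatin of rat pancreatic islets before and after postnatal maturation. The set holds every accessible site (ACS) whose listed nearest gene has a symbol beginning with Il, Cxcl, Cxcr, Tlr, Irf or Nlrp and a digit, or with Ccl, Ccr, Tnfsf or Tnfrsf. One CXCL chemokine was not used here. In all, 810 of the 101603 ACS belonged to the set, and they lay next to 141 genes. The rule reads gene symbols and positions, and none of these ACS was listed with a second gene.

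Accessibility was measured by ATAC-seq, in which the Tn5 transposase inserts adapters into open DNA and the insertions, called integrations, are counted per site. Islet cells were taken from Sprague-Dawley rats without any genetic change or treatment: 3 adult males of about 90 days, each giving 1 library, and male and female pups aged 10 days (P10), of which a few from 3 litters were pooled for 3 libraries. The sources do not say how the litters were divided among these libraries. By the paper's methods, pup pancreases were pooled and digested with collagenase by hand shaking, while collagenase was injected into the pancreatic duct of adults. Isolated islets were then kept for a short time in culture medium. Age, sex, the way of digestion and single animals against pooled pups therefore differed together between the groups and cannot be told apart. Whole islets were used, so beta cells, other endocrine cells, vessel cells and resident immune cells were measured together, and in such bulk samples fewer cells of a type cannot be told apart from less open chromatin per cell. The libraries held 7916919 to 11903909 integrations in ACS in adults and 13491534 to 21168463 at P10. Values below are integrations of a site per 1000000 integrations of its library (CPM), with library sizes adjusted by TMM normalisation, and are followed by the log2 fold change of adult over P10 and its standard error. A site was called Up, more open in adults, or Down, more open at P10, when its p-value was below 0.05 and its FDR below 0.2.

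Cytokines are secreted proteins that carry signals between immune and other cells. Interleukins and TNF family ligands act through paired or trimeric receptors at the cell surface, several of which have soluble or decoy forms that bind the ligand without passing on a signal. Chemokines guide cell migration through G protein coupled receptors, Toll-like receptors and NLRP proteins recognise microbial and damage signals, and interferon regulatory factors carry such signals to the genes. Islet cells express receptors for several of these ligands, and islets contain resident macrophages. Interleukin 1 beta is known for its effects on beta cell function and survival.

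The gene starts on which the results for promoters turned are shown first. The TSS-class sites, those within 1 kb of a gene start, of *Il1r1*, *Il1rn*, *Il23a* and *Cxcl11* were called Up and that of *Tnfrsf1b* was called Down, and *Cxcl10* is shown as the neighbour of *Cxcl11* on the chromosome. Each sequence is the 250 bases before the RefSeq gene start in the build GRCr8, read 5′ to 3′ on the strand of the gene. The ACS themselves are placed on the older build Rn5, so the sequences show the promoters and not the exact sites. The called *Il1r1* site is listed 0.44 kb inside the gene and so lies outside the bases shown. They lie at chr9:50034133-50034382 on the plus strand for *Il1r1*, at chr3:27520072-27520321 on the plus strand for *Il1rn*, at chr7:1308435-1308684 on the minus strand for *Il23a*, at chr14:15973478-15973727 on the plus strand for *Cxcl11*, at chr14:15988816-15989065 on the plus strand for *Cxcl10* and at chr5:162387412-162387661 on the minus strand for *Tnfrsf1b*. Capitals mark matches to the motifs described after them.
Il1r1: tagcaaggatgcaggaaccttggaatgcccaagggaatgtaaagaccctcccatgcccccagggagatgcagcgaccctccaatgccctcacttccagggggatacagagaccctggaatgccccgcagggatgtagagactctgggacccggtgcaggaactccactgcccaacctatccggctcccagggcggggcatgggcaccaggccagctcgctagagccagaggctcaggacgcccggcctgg
Il1rn: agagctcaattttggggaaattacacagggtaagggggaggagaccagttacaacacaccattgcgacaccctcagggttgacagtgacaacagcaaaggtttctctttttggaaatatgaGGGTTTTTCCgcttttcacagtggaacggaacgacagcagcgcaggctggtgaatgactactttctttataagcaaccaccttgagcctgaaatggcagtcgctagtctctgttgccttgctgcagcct
Il23a: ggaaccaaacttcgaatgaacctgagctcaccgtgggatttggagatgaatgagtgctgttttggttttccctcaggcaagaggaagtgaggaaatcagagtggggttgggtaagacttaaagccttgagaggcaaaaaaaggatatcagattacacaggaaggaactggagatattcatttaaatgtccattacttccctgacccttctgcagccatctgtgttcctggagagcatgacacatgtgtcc
Cxcl11: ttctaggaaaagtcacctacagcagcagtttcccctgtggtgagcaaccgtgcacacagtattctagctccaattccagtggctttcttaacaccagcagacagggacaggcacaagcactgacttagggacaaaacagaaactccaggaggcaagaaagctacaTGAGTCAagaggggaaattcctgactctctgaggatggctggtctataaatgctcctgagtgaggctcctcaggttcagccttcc
Cxcl10: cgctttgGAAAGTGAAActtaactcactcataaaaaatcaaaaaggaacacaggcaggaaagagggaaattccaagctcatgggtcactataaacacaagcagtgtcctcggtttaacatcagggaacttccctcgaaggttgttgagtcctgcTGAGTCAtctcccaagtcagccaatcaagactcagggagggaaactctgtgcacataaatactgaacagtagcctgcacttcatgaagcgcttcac
Tnfrsf1b: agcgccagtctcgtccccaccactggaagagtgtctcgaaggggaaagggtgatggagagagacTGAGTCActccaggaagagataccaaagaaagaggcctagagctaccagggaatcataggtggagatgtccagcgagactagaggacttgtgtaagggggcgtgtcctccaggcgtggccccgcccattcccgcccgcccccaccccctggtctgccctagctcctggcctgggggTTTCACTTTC

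These promoters were searched on both strands for the letters GAAA, any 2 bases and GAAA of an interferon-stimulated element, for GGG, any 2 bases and TTTCC of a kappa B element bound by NF-kappa B, and for TGANTCA of an AP-1 element, and no matches overlapped in the 6 sequences. The interferon-stimulated letters were found in the *Cxcl10* and *Tnfrsf1b* promoters, the kappa B letters in the *Il1rn* promoter, and the AP-1 letters in those of *Cxcl11*, *Cxcl10* and *Tnfrsf1b*. *Il1r1* and *Il23a* held none of the motifs in this window. Over the 27457 genes with a promoter sequence, 3.29% held the interferon-stimulated letters, 1.28% the kappa B letters and 6.36% the AP-1 letters. Of the 141 genes of the set, 108 had a promoter sequence, and the shares among them were 8.33%, 7.41% and 11.1%. A match is a run of letters and was not tested as a binding site. Other forms of these elements were not searched, so a promoter without a match may still hold one.

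Over the whole set, 110 of the 810 ACS were called Up and 48 Down, or 13.6% and 5.93%, while 12.6% of all ACS were called Up and 6.64% Down. The set was thus called about as often as ACS in general, and its median log2 fold change was 0.01 beside -0.01 over all ACS. The calls were spread over 74 of the 141 genes, with 40 genes holding only Up sites, 20 only Down sites and 14 both. This is 52.5% of the genes of the set, beside 49.3% of the 13829 genes nearest to any ACS. In 123 sites, 15.2% of the set, the adult values all exceeded the P10 values, which was so in 13.8% of all ACS. In 89 sites, 11.0% of the set, they all fell short of them, as in 10.9% of all ACS. The Up sites had a median log2 fold change of 0.99 and the Down sites one of -0.91. Of the Up sites, 63 of 110 were called in each of the 6 fits that left out 1 library, and of the Down sites 6 of 48. The Down count fell to 26 without adult replicate 4, 24 without adult replicate 6 and 28 without P10 replicate 2, and the counts were 129 Up and 64 Down without P10 replicate 1, which stood apart at beta cell genes. With plain column sums in place of TMM sizes, the counts were 97 Up and 79 Down, so that the Up share of the calls fell from 69.6% to 55.1%.

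**Figure D1:**
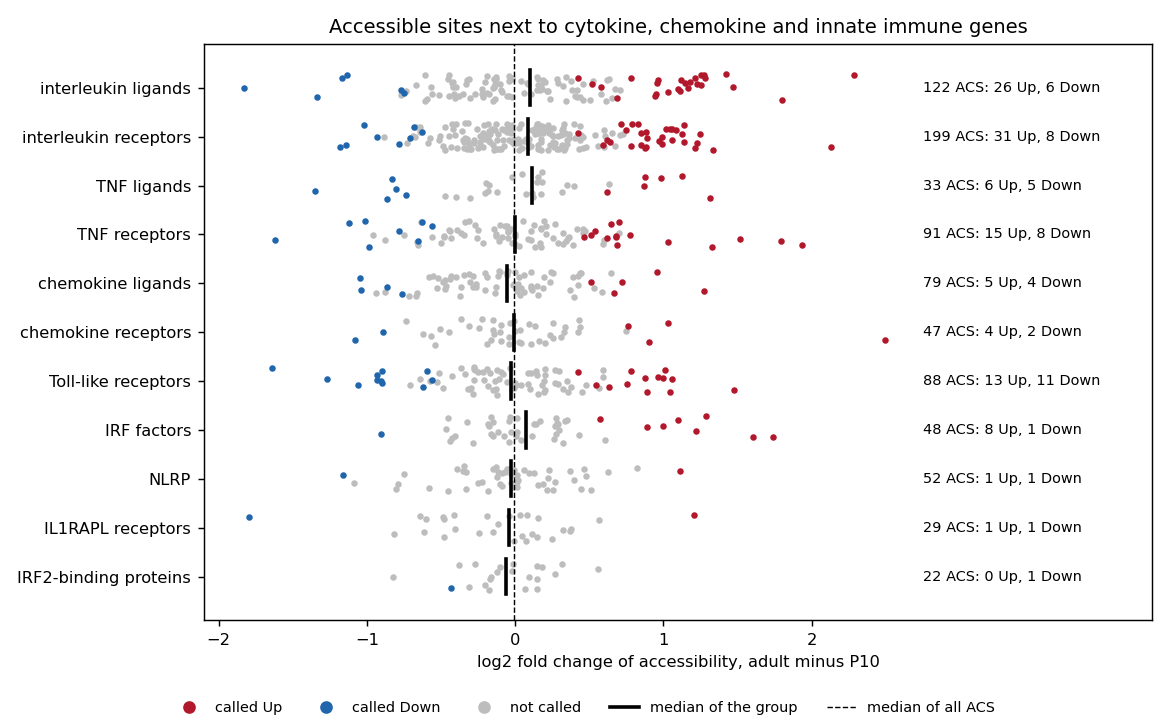
Log2 fold change of accessibility, adult minus P10, for each of the 810 ACS (points), by gene group, with the group median as a black bar and the median of all ACS as a dashed line. Interleukin ligands and receptors hold the most Up sites (red), 26 of 122 and 31 of 199, and Toll-like receptors the most Down sites (blue), 11 of 88.

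Calls in each gene group are given beside 12.6% Up and 6.64% Down of all ACS, and the groups were not tested against each other. Interleukin ligands had 26 Up and 6 Down of 122 ACS (21.3% and 4.92%), and interleukin receptors 31 Up and 8 Down of 199 (15.6% and 4.02%). Their median log2 fold changes were 0.10 and 0.08. Over the fits tried, these medians exceeded that of all ACS by 0.04 to 0.15 for ligands and by 0.06 to 0.11 for receptors. A change of library sizes moves all sites nearly alike, so the scalings could not test this. TNF receptors had 15 Up and 8 Down of 91 (16.5% and 8.79%), and TNF ligands 6 Up and 5 Down of 33 (18.2% and 15.2%). Toll-like receptors had 13 Up and 11 Down of 88 (14.8% and 12.5%), with 4 of their 9 genes holding sites of both kinds. Interferon regulatory factors (IRF) had 8 Up and 1 Down of 48 (16.7% and 2.08%). Chemokine ligands had 5 Up and 4 Down of 79 (6.33% and 5.06%), and chemokine receptors 4 Up and 2 Down of 47 (8.51% and 4.26%). The plot of fold changes by gene group shows these calls as the tails of distributions whose centres lie near 0.

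Some groups of the set have weaker ties to cytokine signalling or innate immunity. The IL1RAPL proteins are known from synapses, the IRF2-binding proteins are nuclear partners of IRF2, and several of the NLRP genes here are known from egg cells. These 103 sites had 2 Up and 3 Down calls, or 1.94% and 2.91%, at a median of 25.7 integrations per library. The other 707 had 108 Up and 45 Down, or 15.3% and 6.36%, at a median of 66.3. Among all ACS, 12.6% were Up and 6.64% Down. The NLRP sites had a median of 16.2 integrations per library against 62.8 for the whole set, and 1 Up and 1 Down of 52 were called. *Nlrp4a*, with 20 sites, was the only gene of 8 or more sites without a call. No ACS had *Nlrp3*, the inflammasome sensor, as its nearest gene, nor *Ccl2* or *Tnfrsf10b*.

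The 13 genes of the interleukin 1, 18 and 33 ligands, antagonists and receptors, grouped after their values were seen, had 84 sites. Of these 18 were Up, 2 Down and 64 not called, or 21.4% Up and 2.38% Down beside 12.6% and 6.64% of all ACS, with a median log2 fold change of 0.15. *Il1r1* encodes the signalling receptor, and its TSS-class site, 0.44 kb inside the gene at chr9:46683498-46683800 in Rn5, read 14.2, 8.76 and 9.41 CPM in the adult libraries and 7.07, 3.64 and 3.81 at P10. All 3 adult libraries were above all 3 P10 libraries, with a log2 fold change of 1.14 ± 0.28 (SE, adjusted p = 0.0064). Of the 15 sites of *Il1r1*, 4 were Up and 1 was Down. *Il1r2*, the decoy receptor that binds interleukin 1 without signalling, lies next to it and had 3 Up and no Down sites of 14. Both of its TSS-class sites, 0.16 and 0.81 kb inside the gene, were Up, at 0.75 ± 0.33 (adjusted p = 0.17) and 0.97 ± 0.29 (adjusted p = 0.027). At the second of them the groups overlapped, since adult replicate 5 read 6.14 CPM and P10 replicate 1 read 7.30, and the call was lost without adult replicate 4. The first was lost in 4 of the 6 fits without a library, those leaving out adult replicate 4 or 6 or P10 replicate 2 or 3.

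The receptors *Il1r2*, *Il1r1*, *Il1rl2*, *Il1rl1* and *Il18r1* stand in a row on chromosome 9, and their 40 sites span 432 kb. This block was chosen after its values were seen. In it 8 sites were Up and 1 Down, including 1 Up site 41.0 kb before *Il1rl1*, the receptor of interleukin 33. The Up sites lay from 25.5 kb before *Il1r2* to the end of *Il1rl2* and had log2 fold changes of 0.72 to 1.14, while 31 sites in the block were not called. The single Down site, 61.0 kb before *Il1r1*, read 0.72, 1.46 and 1.29 CPM in adults and 2.42, 2.57 and 2.80 at P10, and was lost without adult replicate 4.

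**Figure D2:**
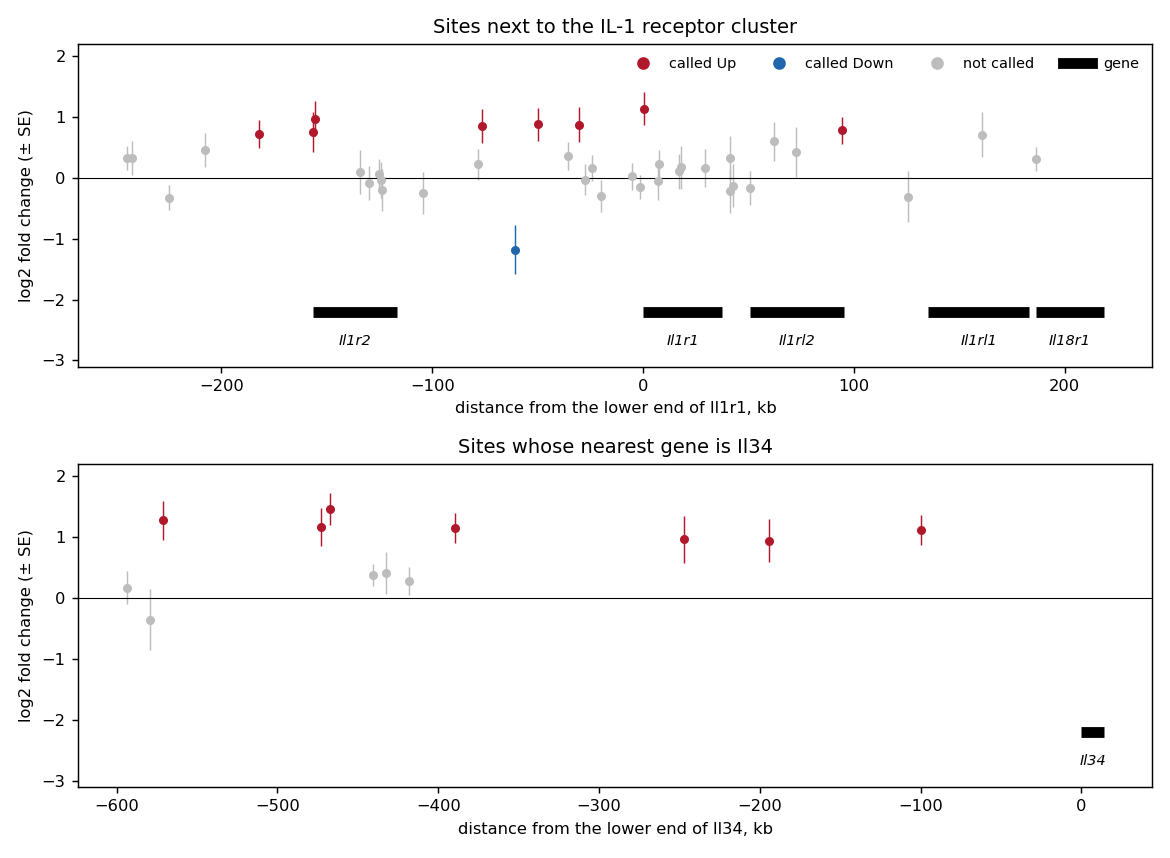
Log2 fold change (± SE) of each ACS by its distance in kb from the lower end of *Il1r1* (upper panel, 40 ACS of 5 receptor genes) and of *Il34* (lower panel, 12 ACS), with genes as black bars. Red points are the 8 and 7 Up sites, the blue point is the 1 Down site, and grey points were not called.

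*Il1rap* encodes the accessory protein that joins the interleukin 1 and interleukin 33 receptors to form the signalling complex. Its site 18.8 kb upstream, at chr11:83105099-83105561, read 14.4, 12.6 and 14.3 CPM in adults and 2.70, 1.93 and 4.60 at P10. This is a log2 fold change of 2.13 ± 0.27 (adjusted p = 3.2e-06), called in every fit without a library. The start of the same gene carried the TSS-class site with the most integrations among the interleukin receptors, with 186, 154 and 183 CPM in adults and 148, 167 and 165 at P10. The groups overlapped there, and the log2 fold change was 0.13 ± 0.13 (adjusted p = 0.65). In all, 5 of the 20 *Il1rap* sites were Up and none was Down.

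*Il1rn*, the secreted receptor antagonist, had an Up site 0.435 kb before its start, at chr3:1455601-1455967, with 5.6, 7.40 and 5.03 CPM in adults and 2.32, 2.92 and 2.59 at P10. Every adult library was above every P10 library, and the log2 fold change was 1.23 ± 0.30 (adjusted p = 0.0064). The ligand *Il1b* had 4 sites and none of TSS class. One of them, 48.9 kb upstream, was Down at -1.16 ± 0.41 (adjusted p = 0.071) and was lost without adult replicate 6 or P10 replicate 2. *Il18bp*, which binds and blocks interleukin 18, had an Up site 1.58 kb upstream, with 21.7, 21.3 and 13 CPM in adults and 12.0, 6.42 and 9.09 at P10 (log2 fold change 1.02 ± 0.24, adjusted p = 0.0044). *Il18* itself had 1 site, with 4.25, 2.73 and 4.64 CPM in adults and 2.74, 1.57 and 1.43 at P10. It was called Up at 0.96 ± 0.35 (adjusted p = 0.085), but adult replicate 5 lay just below P10 replicate 1 and only 2 of the 6 fits without a library kept the call, those leaving out adult replicate 5 or P10 replicate 1. *Il33* had 1 Up site of 8, 24.0 kb past its start, at 1.03 ± 0.34 (adjusted p = 0.048, lost without adult replicate 4).

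In the interleukin 6 system, the receptors had Up sites inside the genes. *Il6r* encodes the ligand-binding chain, and its site 12.8 kb inside the gene read 49.2, 36.9 and 25.8 CPM in adults and 23.1, 11.1 and 13.7 at P10. The lowest adult library stood just above the highest P10 library, and the log2 fold change was 1.21 ± 0.23 (adjusted p = 0.00057). *Il6st* encodes the shared signalling chain gp130. Its site 10.3 kb inside the gene read 25.1, 18.2 and 17.9 CPM in adults and 12.6, 8.49 and 8.46 at P10, without overlap, at 1.05 ± 0.22 (adjusted p = 0.0017), and 2 of the 10 *Il6st* sites were Up and none Down. *Il6*, the ligand, had 2 Up sites of 7, 150 kb upstream and 316 kb past the start, whereas the site at its own start was not called (-0.51 ± 0.32, adjusted p = 0.38).

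Among the other interleukin ligands, *Il20* had a single site, 7.63 kb past its start at chr13:52730148-52730381, which read 9.49, 11.7 and 6.32 CPM in adults and 1.91, 2.07 and 1.74 at P10. Adult libraries were at least 6.32 CPM and P10 libraries at most 2.07, with a log2 fold change of 2.29 ± 0.30 (adjusted p = 4.6e-06). *Il10* lies on the same chromosome, and its site 15.3 kb upstream was Up at 0.69 ± 0.21 (adjusted p = 0.032), although adult replicate 5 at 20.5 CPM lay below P10 replicate 2 at 21.5, and the call was lost without adult replicate 4. *Il15*, a growth factor of T and NK cells, had 4 Up sites of 6. The strongest, 68.3 kb past the start, read 13.9, 11.8 and 12.8 CPM in adults and 4.97, 3.21 and 2.70 at P10, at 1.80 ± 0.26 (adjusted p = 1.8e-05). The other 3 Up sites of *Il15* had log2 fold changes of 0.42 to 0.58, and each was lost in 2 or 4 of the fits without a library.

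*Il23a* encodes the p19 subunit of interleukin 23, and the site over its start, at chr7:2690863-2691332, read 16.5, 11.4 and 7.09 CPM in adults and 6.46, 4.49 and 4.65 at P10. The adult libraries spread more widely than those of P10 but stayed above them, at 1.18 ± 0.27 (adjusted p = 0.0039). *Il12b*, the p40 subunit shared by interleukins 12 and 23, had 2 Down sites and 1 Up site of 12. The Down site 38.5 kb upstream read 0.27, 0.39 and 1.03 CPM in adults and 1.26, 2.0 and 2.43 at P10, at -1.83 ± 0.52 (adjusted p = 0.020). It rests on few integrations, 3 to 8 in the adult libraries and 27 to 46 at P10. The second Down site, 5.32 kb upstream, had -1.13 ± 0.36 (adjusted p = 0.045) and was lost without adult replicate 5, while the Up site lay 2.22 kb inside the gene at 1.25 ± 0.34 (adjusted p = 0.014). *Il12a*, the p35 subunit, had 1 Down site of 17.

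*Il34*, a ligand of the macrophage receptor CSF1R, stood out by count, with 7 Up and no Down of 12 sites and a median log2 fold change of 0.96. All of these sites lay far before the gene, the nearest at 99.9 kb and the farthest at 594 kb, so the link to *Il34* is by position alone. The strongest, 467 kb upstream, read 25.8, 12.5 and 13.4 CPM in adults and 8.13, 5.71 and 4.86 at P10, at 1.47 ± 0.26 (adjusted p = 0.00029). The nearest, which was also Up, read 18.3, 11.6 and 16.9 CPM in adults and 5.76, 9.27 and 6.82 at P10. As the map of the *Il34* sites shows, Up sites occurred along the whole stretch. Beyond its far end the next site was listed with *Psmd7*. *Il7*, a lymphocyte growth factor, had 3 Up of 20 sites, all of them 263 to 456 kb upstream, and the site at its start, at 58.8 to 72.6 CPM in adults and 69.6 to 79.6 at P10, was not called (-0.15 ± 0.15, adjusted p = 0.63).

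Within the TNF family, *Tnfrsf11b* encodes osteoprotegerin, the soluble decoy receptor for RANK ligand, and had 3 Up and 1 Down of 8 sites. The site 12.8 kb upstream, at chr7:94477414-94477970, read 74.1, 42.7 and 83.8 CPM in adults and 25.7, 25.2 and 28.8 at P10. The adult libraries ranged widely, yet the lowest was above all of P10, and the log2 fold change was 1.33 ± 0.19 (adjusted p = 1.9e-05). A second, 52.4 kb past the start, read 28.2, 23.7 and 29.0 CPM in adults and 9.71, 8.20 and 10.1 at P10, at 1.52 ± 0.20 (adjusted p = 5.2e-06). The site over the start of *Tnfrsf11b* held 37.2 to 50.7 CPM in adults and 36.3 to 41.1 at P10 and was not called (0.11 ± 0.17, adjusted p = 0.79). *Tnfrsf11a*, which encodes RANK itself, had no Up and 2 Down sites of 9, of which the one 2.62 kb upstream had -0.99 ± 0.32 (adjusted p = 0.051, lost without adult replicate 6).

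*Tnfrsf1b*, TNF receptor 2, changed in both directions. The site over its start, at chr5:166845201-166846165, read 6.6, 9.64 and 11.7 CPM in adults and 13.9, 17.1 and 16.7 at P10. All adult libraries were below all P10 libraries, at -0.79 ± 0.23 (adjusted p = 0.026), and the call was lost without adult replicate 4. A site 22.5 kb inside the same gene was Up, with 10.4, 13 and 7.48 CPM in adults and 2.56, 2.57 and 3.86 at P10, at 1.79 ± 0.28 (adjusted p = 5.4e-05). *Tnfrsf1a*, TNF receptor 1, had 3 Up sites of 9, all 50.7 to 60.4 kb past its start, and none was called in more than 4 of the 6 fits without a library. The site at the start of *Tnfrsf1a* was not called (-0.10 ± 0.22, adjusted p = 0.86).

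*Tnfrsf8*, which encodes CD30, had only Down calls, 4 of 9 sites, with a median log2 fold change of -0.63, and all 4 lay 293 to 630 kb upstream. The one with the smallest p, 478 kb upstream, read 0.36, 0.97 and 0.77 CPM in adults and 2.60, 1.78 and 1.90 at P10, at -1.62 ± 0.46 (adjusted p = 0.021), on 4 to 10 integrations per adult library. *Tnfrsf21*, death receptor 6, had 5 Up and no Down of 29 sites. *Tnfrsf19* had 3 Up and no Down of 12, the strongest 127 kb upstream with 12.8, 9.06 and 10.8 CPM in adults and 4.09, 2.07 and 2.17 at P10 (1.93 ± 0.29, adjusted p = 2.4e-05).

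The TNF ligands were mixed as well. *Tnfsf10* encodes TRAIL, a death ligand, and had 3 Up and 2 Down of 9 sites. Its site 7.52 kb inside the gene read 25.3, 17.1 and 18.4 CPM in adults and 10.2, 8.84 and 8.83 at P10, without overlap, at 1.13 ± 0.21 (adjusted p = 0.00054). The site over its start was not called (0.16 ± 0.21, adjusted p = 0.75). *Tnfsf15*, or TL1A, had a site 6.53 kb inside the gene with 51.2, 37.8 and 55.0 CPM in adults and 26.2, 25.8 and 26.5 at P10 (0.87 ± 0.18, adjusted p = 0.0011). *Tnfsf4*, the OX40 ligand, had 2 Down sites of TSS class and 1 Up site 9.72 kb inside the gene. The site nearest its start read 3.61, 2.24 and 3.09 CPM in adults and 5.44, 5.35 and 5.55 at P10, at -0.87 ± 0.30 (adjusted p = 0.071), and was lost without adult replicate 5.

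The smallest p of the whole set belonged to a site listed with *Cxcr4*, a chemokine receptor that directs the migration of many cell types. The site lay 395 kb upstream, at chr13:50793307-50793746, and read 30.5, 28 and 31.1 CPM in adults and 5.53, 5.49 and 4.86 at P10. The adult mean of 29.9 ± 1.60 CPM (SD, n = 3) stood against a P10 mean of 5.30 ± 0.37 (SD, n = 3), with a log2 fold change of 2.49 ± 0.21 (adjusted p = 4.1e-09). *Cxcr4* had 17 sites, of which 3 were Up and none Down, and a second Up site lay closer, 8.54 kb past the start, with 23.7, 19.6 and 24.0 CPM in adults and 11.9, 12.4 and 11.7 at P10 (0.90 ± 0.20, adjusted p = 0.0025). Both TSS-class sites of *Cxcr4* had log2 fold changes near 0, -0.04 ± 0.25 and -0.15 ± 0.25. *Cxcr7*, an atypical receptor that takes up chemokine, had 1 Up site of 8.

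**Figure D3:**
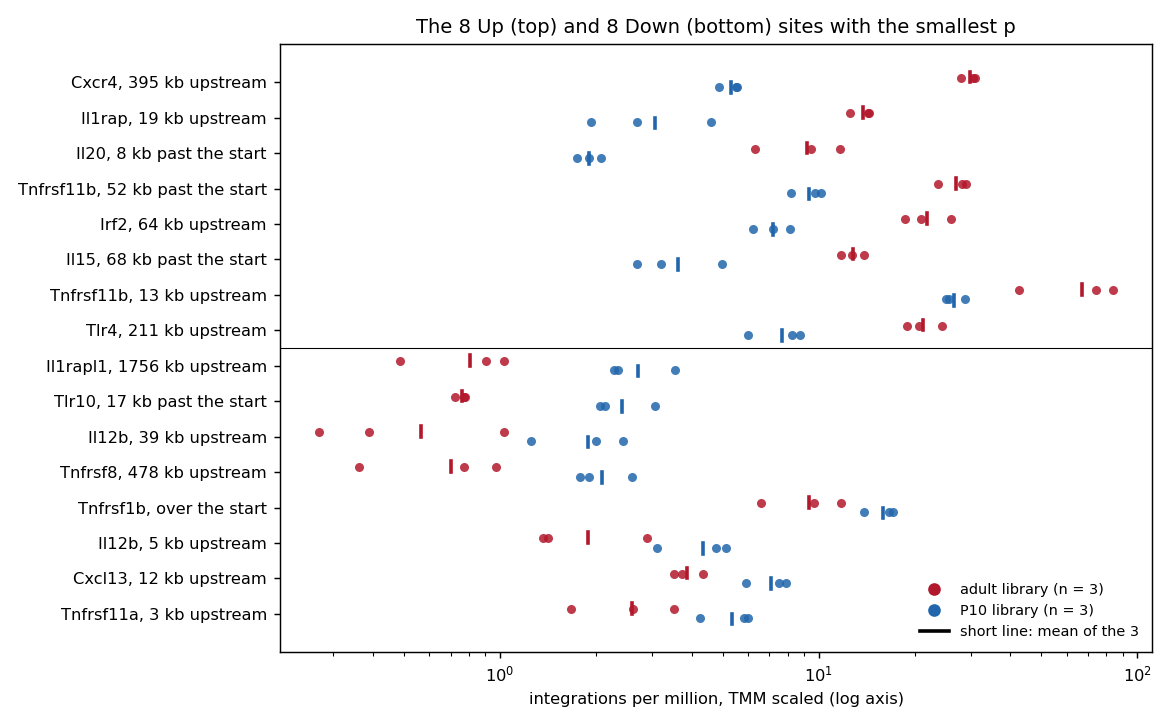
Accessibility in CPM in each of the 3 adult (red) and 3 P10 (blue) libraries on a log axis, with the mean as a short line, for the sites of smallest p without overlap between the groups, 8 of them Up and 8 Down. Adult values of the Up sites run from 6.32 to 83.8, while at 4 of the Down sites the adult libraries hold about 1 CPM or less.

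*Cxcl11* and *Cxcl10* encode interferon-induced ligands of the receptor CXCR3 and are neighbours on chromosome 14. The site over the *Cxcl11* start, at chr14:17111312-17111583, read 11.5, 8.38 and 7.22 CPM in adults and 5.48, 2.85 and 2.70 at P10. The groups did not overlap, and the log2 fold change was 1.28 ± 0.29 (adjusted p = 0.0036). The site over the *Cxcl10* start, at chr14:17126603-17127030, read 22, 18.4 and 20.4 CPM in adults and 18.9, 13.3 and 12.2 at P10. Adult replicate 5 and P10 replicate 1 overlapped there, and the site just missed the limit (0.45 ± 0.21, adjusted p = 0.20), while limma voom called it. Of the pair only *Cxcl11* was called, and the difference between their fold changes was not tested.

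*Cxcl13*, a B cell attractant, had 3 Down and no Up of 14 sites and a median log2 fold change of -0.45. The site 12.5 kb upstream read 4.34, 3.51 and 3.74 CPM in adults and 5.90, 7.49 and 7.93 at P10, at -0.87 ± 0.28 (adjusted p = 0.048), and was called in every fit without a library. *Ccl5*, a T cell attractant, had 2 Up sites. The one 3.87 kb upstream read 9.04, 9.45 and 5.16 CPM in adults and 3.86, 4.71 and 3.91 at P10 (0.96 ± 0.27, adjusted p = 0.022) and was called in every fit without a library. The other, farther upstream, was called in only 1 of these 6 fits, the one without P10 replicate 1. *Cxcl1*, a neutrophil attractant, held the TSS-class site with the most integrations among the chemokine ligands, with 34.7, 23.2 and 39.4 CPM in adults and 29.1, 32.7 and 34.0 at P10, and did not differ beyond its spread (0.02 ± 0.19, adjusted p = 0.98).

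Toll-like receptors showed calls in both directions, often at 1 gene. *Tlr4*, the receptor for bacterial lipopolysaccharide, had 30 sites, the most of any gene here, with 7 Up and 1 Down, but a median log2 fold change of 0.00. The strongest, 211 kb upstream at chr5:86479438-86480187, read 20.6, 19 and 24.4 CPM in adults and 6.0, 8.27 and 8.72 at P10, at 1.48 ± 0.22 (adjusted p = 2.4e-05). The sites of *Tlr4* ranged from 1.29 kb to 1226 kb from its start. *Tlr2*, which senses bacterial lipoproteins, had 4 Up and 3 Down of 23 sites. Its Up sites lay 21.1 and 29.0 kb past the start and 21.9 and 33.4 kb before it, and its Down sites lay 88.4, 99.3 and 136 kb before it. The Up site with the smallest p, 33.4 kb upstream, read 12.9, 15.8 and 13 CPM in adults and 7.16, 6.56 and 6.93 at P10 (1.01 ± 0.22, adjusted p = 0.0028). All 3 Down sites of *Tlr2* were lost in 3 or 4 of the fits without a library.

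*Tlr10* had a Down site 16.7 kb past its start with 0.72, 0.78 and 0.77 CPM in adults and 2.14, 3.07 and 2.06 at P10 (-1.64 ± 0.44, adjusted p = 0.014), on 6 to 8 integrations per adult library. *Tlr3*, a receptor of double-stranded RNA, had a Down site of TSS class, with 1.17, 0.88 and 0.39 CPM in adults and 1.91, 0.71 and 2.54 at P10. The groups overlapped, and the call (-1.06 ± 0.49, adjusted p = 0.19) was lost with limma voom, DESeq2 and the legacy fit and without adult replicate 5 or 6 or P10 replicate 1 or 3. *Tlr5* had 2 Down and no Up of 11 sites.

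Among the interferon regulatory factors, calls were held by 3 of 9 genes. *Irf2*, which competes with IRF1 at interferon-stimulated elements, had 5 Up and no Down of 21 sites. The strongest, 64.4 kb upstream at chr16:48469184-48469423, read 26.0, 20.9 and 18.7 CPM in adults and 8.13, 6.21 and 7.19 at P10, at 1.60 ± 0.22 (adjusted p = 6.9e-06). *Irf1* had 1 Up site, 12.4 kb past its start, with 8.58, 5.55 and 7.73 CPM in adults and 2.84, 2.28 and 1.37 at P10 (1.74 ± 0.31, adjusted p = 0.00031), and its start site was not called (-0.32 ± 0.19, adjusted p = 0.34). *Irf4*, a lymphocyte factor, had Up sites 19.9 kb upstream and 12.7 kb inside the gene and a Down site 1.23 kb inside it, which 4 of the 6 fits without a library lost. The upstream site read 71.6, 52.1 and 58.4 CPM in adults and 29.6, 24.7 and 30.6 at P10, at 1.10 ± 0.17 (adjusted p = 5.0e-05). The site over the start of *Irf3* was not called (-0.42 ± 0.21, adjusted p = 0.24). It was called Down with column sums as library sizes and when only sites with a mean count of at least 50 were tested, and at TMM scaling its groups did not overlap.

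Promoters were compared apart from distal sites, since calls among all TSS-class ACS were mostly Down. Of the 78 TSS-class sites of the set, 7 were Up and 7 Down, or 8.97% each, while 2.74% of all TSS-class ACS were Up and 7.76% Down. The Up sites belonged to *Cxcl11*, *Il1rn*, *Il23a*, *Il1r1*, *Il1r2* with 2 sites, and *Il3ra*. The Down sites belonged to *Tlr3*, *Il17re*, *Tnfsf4* with 2 sites, *Tnfrsf1b*, *Tnfsf12* and *Irf2bpl*. With column sums as library sizes these counts were 5 Up and 12 Down. The median log2 fold change was -0.08 in the set and -0.10 over all TSS-class ACS. Of the Up sites, 4 were called in every fit without a library, those of *Cxcl11*, *Il1rn*, *Il23a* and *Il1r1*, and of the Down sites none was. *Il3ra* was lost without adult replicate 4 or P10 replicate 2 or 3. *Il17re* and *Irf2bpl* were each lost without adult replicate 4 or 6 or P10 replicate 2. *Tnfsf12* was lost without adult replicate 6, and the second site of *Tnfsf4* without adult replicate 4 or P10 replicate 3. Sites of the set that overlapped a gene start itself numbered 50, with 2 Up and 3 Down, or 4.0% and 6.0%. The share of calls among all ACS that overlap a start was not counted.

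**Figure D4:**
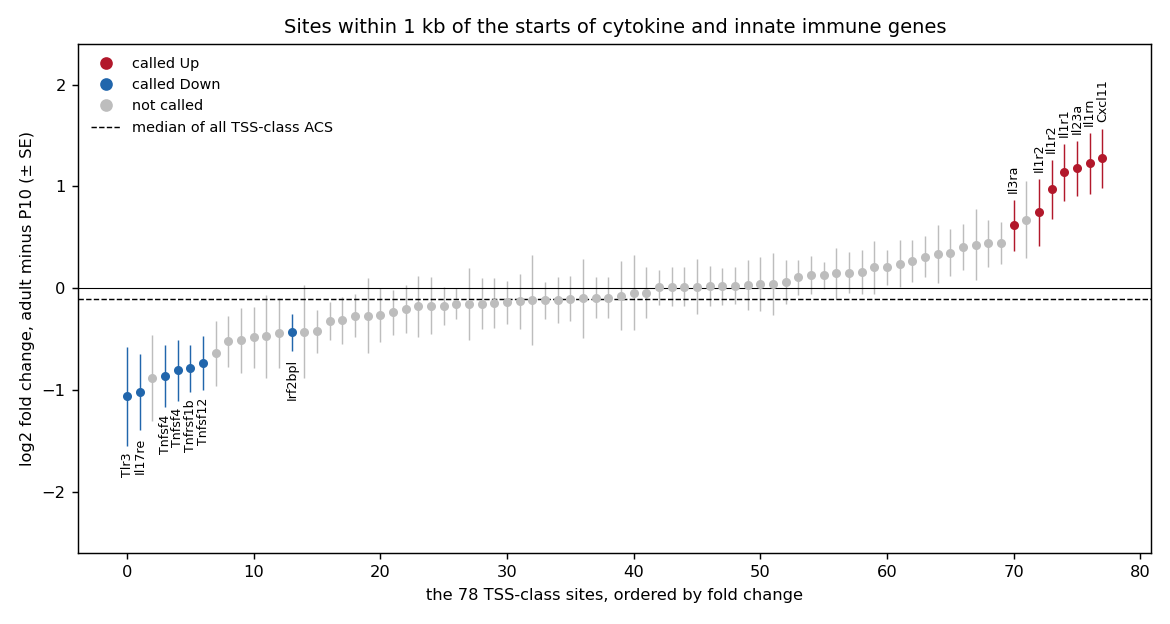
Log2 fold change (± SE), adult minus P10, of the 78 TSS-class ACS in order of fold change, with called sites named. The 7 Up sites (red) lie between 0.62 and 1.28 and the 7 Down sites (blue) between -0.44 and -1.06, and the dashed line is the median of all TSS-class ACS, -0.10.

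Distal sites, more than 10 kb from the listed start, numbered 618, with 85 Up and 32 Down, or 13.8% and 5.18% beside 14% and 6.47% of all distal ACS. Proximal sites numbered 114, with 18 Up and 9 Down, or 15.8% and 7.89% beside 11.5% and 6.80% of all proximal ACS. Counting only the 648 sites within 100 kb of the gene left 86 Up and 39 Down. These were 13.3% and 6.02%, beside 11.9% and 6.87% of all ACS within 100 kb. Of the 51 sites on the X chromosome, which differs in copy number between the male adults and the pups of both sexes, 3 were Up and 3 Down, or 5.88% each, beside 7.23% and 9.43% of all ACS on X.

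Of the 36 genes with at least 8 sites, 16 had only Up calls, 11 only Down calls, 8 both and 1 none. Thus 97.2% of them held a call, beside 91.0% of all 3611 genes with at least 8 ACS, so that a call at such a gene was the usual case. Beyond those described, *Il5ra* had 2 Up and 1 Down of 19 sites and *Tlr6* 1 Up and 2 Down of 8. One Up and no Down site each was found for *Il17rd* of 11, *Il20rb* of 9, *Il20ra* of 8 and *Il1rapl2* of 16. One Down and no Up site each was found for *Irf2bpl* of 18, *Il1rapl1* of 13, *Il13ra2* of 11, *Nlrp9* of 10, *Tlr3* of 9 and *Ccl4* of 8. The Down site of *Il1rapl1*, 1756 kb upstream, had the smallest p of all Down sites of the set. It read 0.90, 0.49 and 1.03 CPM in adults and 3.53, 2.35 and 2.27 at P10 (-1.79 ± 0.44, adjusted p = 0.0071). This site rests on 5 to 10 integrations per adult library and lies on the X chromosome, whose copy number differs between the groups. Start sites with the most integrations in their group that were not called included those of *Tlr2* (-0.12 ± 0.18, adjusted p = 0.79), *Cxcr5* (-0.09 ± 0.20, adjusted p = 0.85) and *Il1rapl2* (-0.15 ± 0.25, adjusted p = 0.81). *Il17ra* had its smallest p at a site over the end of the gene that was not called (-0.59 ± 0.28, adjusted p = 0.21), although DESeq2, median-of-ratios and column-sum scaling and a minimum mean count of 50 called it Down. *Il22ra1* was not called (0.34 ± 0.26, adjusted p = 0.51).

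Summed over the set, the 810 sites took 0.660%, 0.642% and 0.646% of all integrations in ACS in the adult libraries and 0.629%, 0.619% and 0.605% at P10. The adult shares, 0.649% ± 0.0094 (SD, n = 3), were all above the P10 shares, 0.617% ± 0.012 (SD, n = 3). The exact two-sided permutation test over the 6 libraries gave p = 0.1, which is the smallest it can give with 10 splits, and adjusted over the 12 sums compared it was 0.27. Among the 11 gene groups, the adult shares lay above all P10 shares for interleukin ligands and TNF ligands and below them for chemokine ligands, and the groups overlapped in the other 8. The 78 TSS-class sites took less in adults, 0.108% to 0.113%, than at P10, 0.115% to 0.120%.

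**Figure D5:**
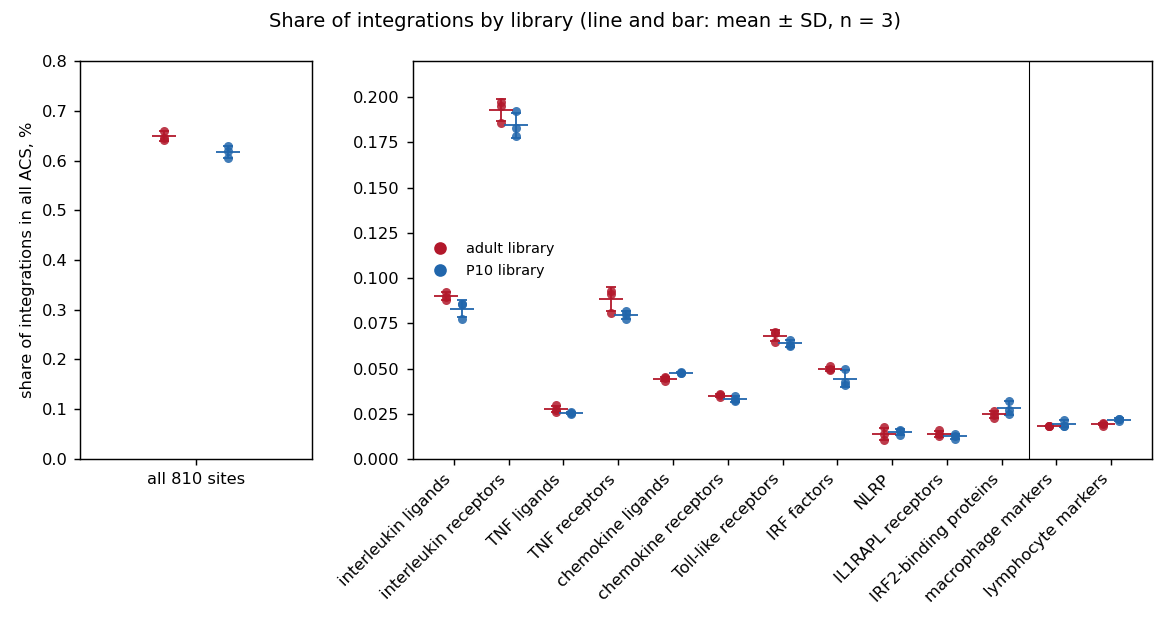
Share of all integrations in ACS, in percent, taken by the 810 sites (left) and by each gene group and 2 lists of immune cell markers (right) in the 3 adult (red) and 3 P10 (blue) libraries, with mean ± SD. The 810 sites take 0.642% to 0.660% in adults and 0.605% to 0.629% at P10, and most gene groups overlap.

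Markers of the cells that could carry these sites were measured in the same libraries. Gene starts were counted first, and ACS stood at the starts of 7 of 10 beta cell genes and 4 of 5 alpha cell genes, among them *Ins1*, *Pdx1* and *Gcg*. The counts were 5 of 8 for duct, 6 of 12 for mesenchyme, 3 of 12 for endothelium and 3 of 14 for acinar genes. They therefore do not single out islet cells. Of 17 macrophage genes, 13 had an ACS and 1, *C1qa*, had one at its start, while *Cd68*, *Aif1*, *Lyz2* and *C1qc* had none. The 34 ACS next to macrophage genes had 1 Up and 2 Down calls, or 2.94% and 5.88%, beside 12.6% and 6.64% of all ACS. They took 0.0181% to 0.0184% of integrations in adults and 0.0181% to 0.0216% at P10. For 13 lymphocyte genes, 5 had an ACS, with 2 Up and 2 Down of 19 (10.5% each). Their share was 0.0184% to 0.0196% in adults and 0.0210% to 0.0222% at P10, without overlap. The sites next to alpha cell genes took more in adults, 0.0854% to 0.0949%, than at P10, 0.0724% to 0.0825%. They had 23 Up and 3 Down of 103 (22.3% and 2.91%). Those next to duct genes took 0.0372% to 0.0394% in adults and 0.0352% to 0.0362% at P10. They had 5 Up and 7 Down of 48 (10.4% and 14.6%). The starts of *Sox9* (-0.73), *Muc1* (-0.58) and *Cftr* (-0.73) were among the Down sites. Of these, that of *Cftr* was called in each fit without a library. For the lymphocyte, alpha cell and duct shares the exact permutation test gave p = 0.1, the smallest it can give. Endothelial, mesenchymal and acinar shares overlapped. Calls were 12 Up and 5 Down of 84 endothelial sites (14.3% and 5.95%) and 13 Up and 6 Down of 79 mesenchymal sites (16.5% and 7.59%). Acinar genes had 5 Up and 6 Down of 64 (7.81% and 9.38%). Sites next to beta cell genes took 0.134% in P10 replicate 1 and 0.105% to 0.117% in the other 5 libraries. They had 17 Up and 13 Down of 105 (16.2% and 12.4%). The starts of the insulin genes *Ins1* (-0.75 ± 0.17, adjusted p = 0.0043) and *Ins2* (-1.12 ± 0.30, adjusted p = 0.013) were Down, with every P10 library above every adult library, and were called in each fit without a library, that without P10 replicate 1 included. The start of *Ucn3*, a gene known to mark mature beta cells, was Up (0.54 ± 0.21, adjusted p = 0.11), a call that 4 of the 6 fits without a library lost. Those of *Pdx1* (-0.15), *Nkx6-1* (0.01), *Iapp* (0.22) and *Slc30a8* (-0.18) were not called. The part of these cell types in the calls of the set was not tested.

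Genes that pass cytokine and innate signals on inside the cell, or that signal beside them under other names, were counted from a separate list of 95 genes, of which 72 had a total of 460 ACS. Of these, 52 were Up and 34 Down, or 11.3% and 7.39%, beside 12.6% and 6.64% of all ACS, with a median log2 fold change of -0.01. *Nfkbiz*, an inhibitor-like protein of NF-kappa B, had 7 Up and 3 Down of 44 sites, and *Tab2*, an adaptor of the TAK1 kinase, 5 Up and none Down of 17. Both *Jak1*, with 3 Up of 13, and *Jak2*, with 3 Down of 8, encode kinases bound to cytokine receptors. *Socs3*, a feedback inhibitor of that pathway, had 2 Down of 11. *Csf1r*, the receptor for the *Il34* product, had 1 Down and no Up of 3 sites. At the starts of these genes, 1 site was Up and 7 were Down of 62, or 1.61% and 11.3%, beside 2.74% and 7.76% of all TSS-class ACS.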

How the data were processed

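Tn5 integrations were measured by ATAC-seq in 3 adult and 3 P10 rat islet libraries. The authors aligned reads to Rn5, discarded poorly mapped and mitochondrial reads, called peaks on the joined samples of each age and counted integrations with pyDNase. The submitters' processing notes name FastQC 0.11.2, BWA 0.7.13, SAMtools 1.3 and MACS2 2.1.1. The deposited values are whole-number counts per ACS and library, not normalised, beside the nearest gene. The same table holds the authors' own log2 fold change, mean log2 CPM, F value, p-value and FDR, which were not used. Whether PCR duplicates were removed is not given in the sources used here, so errors cover the counts as they stand. Some genes that the naming rules would cover are not reported here.

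Of 101941 entries, 101603 were distinct ACS. All were tested with edgeR 4.0.16 in R 4.3.3 (TMM, estimateDisp, glmQLFit, glmQLFTest, age as the only term), with Benjamini-Hochberg adjustment over all ACS. The standard error is the absolute log2 fold change divided by the square root of F. P-values measure the spread between 3 libraries of each age. Replicates of a group differed by 3.15 to 7.00 times the sampling variance over the 810 sites, so none was a repeated deposit. The fit was tested on simulated data, in which 200 of 101603 ACS were given a log2 change of 1 up or down. It called 34% of these in the right direction, so a site not called may still have changed. The share of changed sites in that simulation was far smaller than the share called in the data. Classes follow the distance to the listed gene start: TSS within 1 kb, proximal within 10 kb, distal beyond. Distances are from the lower end of the ACS.

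The set and the lists of genes were chosen with earlier results of these data known. Sites named are the 8 Up and 8 Down with the smallest p among those without overlap, the TSS-class site with most integrations in each group, genes with at least 8 sites by counts, and the site with the smallest p of 28 genes known in islets. Further sites named for called genes, including the *Il1r2* to *Il18r1* block, were chosen after their values were seen. Shares were compared by exact permutation (SciPy). Alternatives were column sums, median-of-ratios and total reads as library sizes, DESeq2 1.42.0, limma 3.58.1 voom, filters on low counts, a stricter FDR, autosomes alone, sites within 100 kb, each library left out and, chosen after seeing the data, the legacy form of the quasi-likelihood fit. Promoter sequences are from RefSeq, build GRCr8.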

Additional observations from a re-analysis of the deposited data

How the results depend on the processing

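The 110 Up sites became 97 with column sums as library sizes, 107 with median-of-ratios factors, 103 with DESeq2, 112 with limma voom, 87 with a mean count of at least 50, 74 at an FDR under 0.05 and 86 within 100 kb of the gene. The 48 Down sites moved more, to 79 with column sums and 7 at an FDR under 0.05, and stood at 47 to 53 with median-of-ratios factors, DESeq2, limma voom, filterByExpr, the minimum mean count of 50, autosomes alone and the legacy fit. Leaving out 1 library gave 80 to 129 Up and 24 to 64 Down sites, with the fewest Down sites without adult replicate 4 (26), adult replicate 6 (24) or P10 replicate 2 (28). The 86 calls in the signalling list became 39 at an FDR under 0.05 and 57 to 107 with 1 library left out, the fewest without adult replicate 4.

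Total sequenced reads as library sizes moved the median log2 fold change of all ACS to -0.83, and column sums moved it to -0.10. With total reads the set had 10 Up and 465 Down sites and the signalling list 288 calls. The mean log2 ratio, adult over P10, of the set's share of integrations in ACS was 0.07. It ranged from 0.06 to 0.09 with 1 library left out. Counted per sequenced read, a different quantity, the log2 ratio of the set's integrations was -0.66. Sites not called with TMM turned to Down calls with total reads at the starts of *Tnfsf10* (-0.69), *Tnfrsf11b* (-0.75), *Cxcl1* (-0.82) and *Il1rap* (-0.70), while the Up sites of *Il10* and *Tnfrsf1a* read -0.14 and -0.065. Each adult library held fewer integrations in ACS per sequenced read than each P10 library, and scaling by total reads carries this difference into every site. The cause of that difference was not tested. The 8 Up and 8 Down sites with the smallest p among those without overlap held 11 to 16 calls in every fit, and 11 were those left by the minimum mean count of 50.

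No paired analysis was possible because the adult libraries carry the numbers 4, 5 and 6 and the P10 libraries 1, 2 and 3. Outlying libraries were not tested, since groups of 3 are too small. Sites with under about 10 integrations in a library, as at several Down sites, limit the precision of their folds, and no expression of these genes was measured here.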
